A study of Mus musculus with 12 samples.

Results

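The messenger RNAs for the subunits of oxidative phosphorylation (OXPHOS) were compared across 12 mRNA-seq libraries of mouse retina. Nuclear-encoded members were the protein-coding genes of chromosomes 1 to 19 whose symbol begins as a subunit of complexes I to V does (Nduf followed by a, b, c, s or v and a digit, Sdha to Sdhd, Uqcr, Cox4 to Cox8, Atp5), with Cox7a2l left out. Mitochondrially encoded members were the protein-coding genes of the mitochondrial chromosome. This gave 95 of the 37991 genes measured, 82 nuclear and 13 mitochondrial. By symbol, 35 of the nuclear members were assigned to complex I, 4 to complex II, 8 to complex III, 17 to complex IV and 18 to complex V, and 7, 0, 1, 3 and 2 of the mitochondrial members to the same complexes.

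All libraries came from male mice of 8 weeks, and each was made from a pool of 6 to 8 retinas. The inbred parents, called F0, were C57BL/6J, the standard laboratory strain, and Cast/EiJ, a strain derived from wild mice of another subspecies. F1 B6xCast had a Cast/EiJ mother and a C57BL/6J father, and F1 CastxB6 had a C57BL/6J mother and a Cast/EiJ father, with 3 libraries in each of the 4 groups. The reciprocal crosses thus carried the same autosomes and differed in maternally inherited mitochondrial DNA, but also in the X chromosome, in the Y chromosome and in the mother herself, and these cannot be told apart in this design. Cast/EiJ is 1 inbred line, so a difference between the strains stands for these lines only.

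Oxidative phosphorylation is carried out in the inner mitochondrial membrane. Complexes I to IV pass electrons from NADH and succinate to oxygen, and complexes I, III and IV pump protons. Complex V, the ATP synthase, uses the proton gradient to make ATP. Complexes I, III, IV and V are mosaics of proteins from both genomes, whereas complex II is built from nuclear genes alone. Mitochondrial DNA passes through the mother, is transcribed as long polycistronic RNAs that are cut into single mRNAs, and most of these mRNAs receive short poly(A) tails, which is how they enter poly(A)-selected libraries. Photoreceptor inner segments are packed with mitochondria, and the retina is among the tissues that use the most oxygen. The comparisons below ask whether the nuclear subunit mRNAs follow the mitochondrially encoded ones between strains and between maternal lineages.

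Levels are count equivalents, the authors' normalized estimate of read pairs per gene. Unique hits, the read pairs that the authors could assign to 1 gene and allele only, totalled 8158534 to 12363291 per library. Count equivalents of an F1 library are the sum of a C57BL/6J and a Cast/EiJ allele column, so that F1 and F0 levels are on different scales and are not compared directly. The 10 rod marker genes summed to 894910 to 960640 count equivalents in the F0 libraries, and the 9 lens markers to at most 544 in any library. Blood markers summed to 676 to 1035 in C57BL/6J and 347 to 616 in Cast/EiJ, retinal pigment epithelium markers to 251 to 298 and 99.3 to 148, and ganglion cell markers to 15117 to 16727 and 10124 to 11080, with lower sums in Cast/EiJ. Cone markers (13064 to 14044 and 10855 to 12416) and bipolar cell markers (19024 to 21505 and 17751 to 18536) were lower there as well. Amacrine cell markers were higher, at 10329 to 11867 in C57BL/6J and 13136 to 14041 in Cast/EiJ. The rod sum was also higher in Cast/EiJ without overlap, but 5 of the 10 rod markers were higher and 5 lower. Their median log2 difference (Cast/EiJ minus C57BL/6J) was 0.00, and the test described below called only Sag (1.18) and Nr2e3 (0.35). Müller glia and lens markers overlapped. Their part in the results was not tested, and fewer cells of a type cannot be told from less RNA per cell. Replicate 1 had the lowest summed nuclear OXPHOS level and the highest summed mitochondrial level in F0 C57BL/6J, F0 Cast/EiJ and F1 B6xCast, but not in F1 CastxB6.

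The measured levels of the mitochondrially encoded mRNAs were lower in Cast/EiJ than in C57BL/6J, and lower in the F1 cross with a Cast/EiJ mother than in the F1 cross with a C57BL/6J mother. Their sum was 901720, 624750 and 588375 count equivalents in the 3 F0 C57BL/6J libraries and 297371, 191544 and 226034 in the 3 F0 Cast/EiJ libraries. The groups did not overlap, and the geometric mean was 2.95-fold higher in C57BL/6J. In F1 CastxB6 the sum was 1281812, 1397521 and 1192937, and in F1 B6xCast it was 529500, 409816 and 392254, a 2.93-fold difference with no overlap. With 3 libraries against 3, the exact two-sided permutation test gave p = 0.1 for each comparison, the smallest p it can give. As a share of all count equivalents, mitochondrial mRNAs took 5.29% ± 1.26 (SD, n = 3) in F0 C57BL/6J, 1.78% ± 0.394 in F0 Cast/EiJ, 4.81% ± 0.357 in F1 CastxB6 and 1.70% ± 0.286 in F1 B6xCast. None of the 13 genes had an allele-specific unique hit in any F1 library, which was also true of the 7 nuclear members marked by the authors as having no known exonic variant between the strains. In the hybrid reference, no read pair of these 13 genes thus told a C57BL/6J sequence from a Cast/EiJ sequence. The sources used here do not state whether variants of mitochondrial DNA were built into the Cast/EiJ reference. The part that mismatches between Cast/EiJ reads and the reference had in these levels was not tested.

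The nuclear members did not follow. Their sum was 74161, 84590 and 89944 count equivalents in F0 C57BL/6J and 76941, 87076 and 93270 in F0 Cast/EiJ. In F1 CastxB6 it was 182297, 172664 and 173916, and in F1 B6xCast it was 145171, 178101 and 179196. The groups overlapped in both comparisons, with a log2 difference of 0.05 between the strains (Cast/EiJ minus C57BL/6J, exact permutation p = 0.6) and of -0.08 between the crosses (B6xCast minus CastxB6, exact permutation p = 0.8), against -1.56 and -1.55 for the mitochondrial sums.

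**Figure D1:**
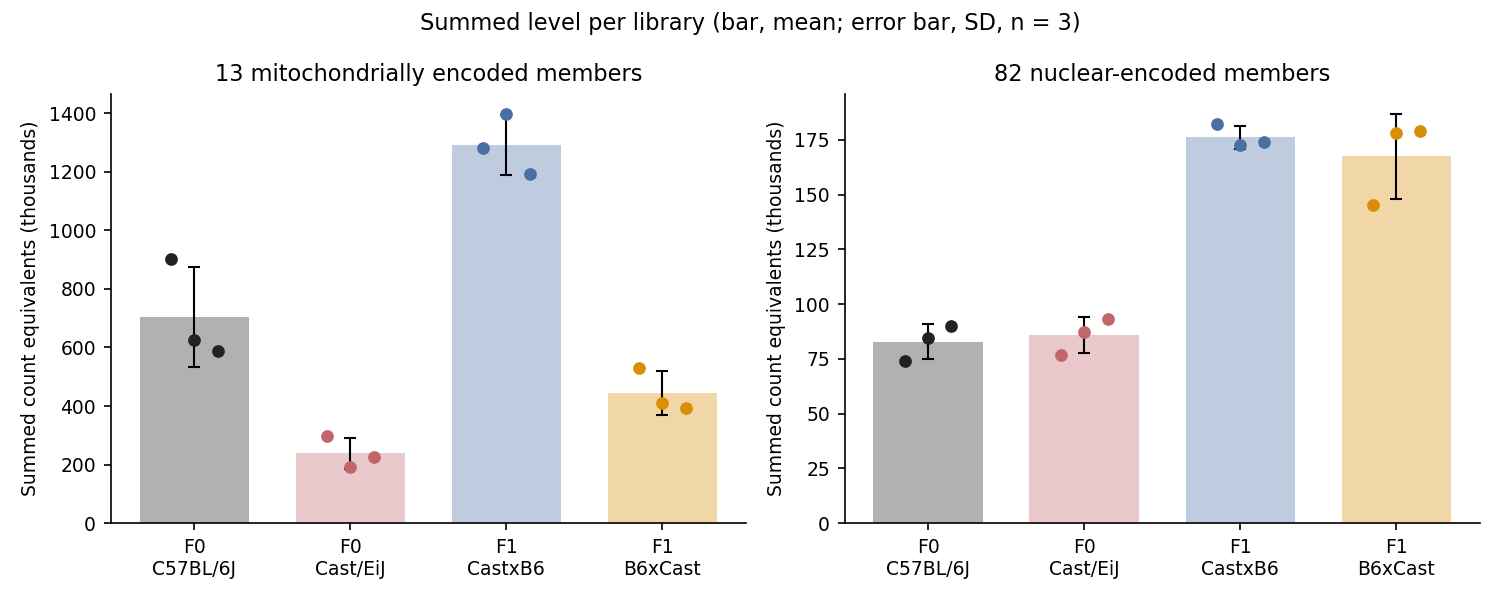
Summed count equivalents per library of the 13 mitochondrially encoded members (left) and the 82 nuclear-encoded members (right); points are libraries, bars means and error bars SD of 3 libraries. The mitochondrial sums of the groups with Cast/EiJ mitochondria (F0 Cast/EiJ, F1 B6xCast) lie below those of the groups with C57BL/6J mitochondria within each generation, and the nuclear sums overlap; F0 and F1 are on different scales.

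Gene by gene, 9 of the 13 mitochondrial mRNAs fell between the F0 strains, with a median log2 difference of -1.88 over all 13 (Cast/EiJ minus C57BL/6J). The test was limma on log2 of count equivalents plus 1 over 14467 genes that reached 10 count equivalents in 3 or more of the 6 F0 libraries, with Benjamini-Hochberg adjustment and a threshold of 0.05. It called 33.8% of all genes tested, 17.1% higher and 16.7% lower, and the median over all genes was 0.03. A log2 difference on this scale slightly understates the change of low genes. In the F1 cross comparison (B6xCast minus CastxB6) the same test called 17 of 14982 genes, which is 0.113% (0.0467% higher and 0.0667% lower). The same 9 mitochondrial genes fell there, with a median of -1.82 over the 13, against -0.00 for all genes. Of the other 8 genes called, 6 were nuclear copies of mitochondrial sequence, described below, and the last 2 were 4930481A15Rik and Aqp3. The F1 count was 5 without CastxB6 replicate 1.

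Complex I supplied 7 of the mitochondrial members, all of them membrane arm subunits, and 4 of these fell in both comparisons. mt-Nd1, which lies at the base of the membrane arm near the quinone site, had 76300, 50900 and 47400 count equivalents in F0 C57BL/6J and 9880, 6030 and 6850 in F0 Cast/EiJ (-2.94 ± 0.22 (SE), adjusted p = 1.52e-05). In the F1 libraries mt-Nd1 had 95200, 104000 and 87900 in CastxB6 and 13670, 12700 and 11880 in B6xCast (-2.91 ± 0.08 (SE), adjusted p = 6.62e-06). The groups were far apart in both generations, and the log2 differences were nearly equal. mt-Nd2, a proton pumping subunit, had 52900, 28700 and 24500 in C57BL/6J and 13000, 7470 and 7650 in Cast/EiJ (-1.88 ± 0.30 (SE), adjusted p = 0.00149), and between the crosses its log2 difference was -1.83 ± 0.17 (SE), adjusted p = 0.0135. mt-Nd5, the most distal pumping subunit, had 74000, 43700 and 43000 in C57BL/6J and 16500, 9990 and 11400 in Cast/EiJ (-2.07 ± 0.24 (SE), adjusted p = 0.000243), and between the crosses its log2 difference was -1.82 ± 0.12 (SE), adjusted p = 0.00221. Replicate 1 was the highest library of each F0 group for these 3 genes, and even so no Cast/EiJ library reached a C57BL/6J library.

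mt-Nd3, a small subunit next to the quinone site (NCBI37 MT:9459-9806), was nearly undetected wherever the mitochondria came from Cast/EiJ. It had 8120, 4840 and 4940 count equivalents in F0 C57BL/6J and 8296, 8510 and 5830 in F1 CastxB6, but 0.959, 3.78 and 4.3 in F0 Cast/EiJ and at most 0.208 in any F1 B6xCast library. In unique hits this was 7284, 4734 and 4242 against 1, 3 and 4. Over the pooled libraries of each strain, the share of all unique hits was 1618-fold higher in C57BL/6J, with an exact 95% interval of 821 to 3749 that covers counting error only. Against a floor of 3 count equivalents per library, the lowest F1 CastxB6 library was at least 1943-fold higher than F1 B6xCast. These ratios describe reads assigned to mt-Nd3 in a reference that may hold no Cast/EiJ variant of it, and an absence of reads was not told from an absence of mRNA. The fitted log2 differences (-10.62 in F0, -12.63 in F1) depend on the pseudocount and are not bounds, but since mt-Nd3 lies below the median of the 13 genes at any of these values, the medians above do not depend on it. No annotated nuclear copy was found for mt-Nd3.

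The remaining complex I members did not pass the test. mt-Nd4, a pumping subunit, had 87600, 51900 and 47000 in C57BL/6J and 62300, 28400 and 31800 in Cast/EiJ (-0.64 ± 0.31 (SE), adjusted p = 0.148), so replicate 1 of Cast/EiJ lay inside the C57BL/6J range. Without that library the call was made, at a log2 difference of -0.99 and adjusted p = 0.0154 by limma, and mt-Nd6 was then called as well (-1.25, adjusted p = 0.0166), so that 11 of the 13 genes were lower. mt-Nd6, the only subunit gene on the light strand, had 15700, 6760 and 7470 and 9630, 3700 and 4090 (-0.81 ± 0.40 (SE), adjusted p = 0.146), again with replicate 1 of Cast/EiJ inside the C57BL/6J range. Between the crosses the log2 differences were -0.66 ± 0.21 (SE), adjusted p = 0.915 for mt-Nd4 and -0.76 ± 0.36 (SE), adjusted p = 0.915 for mt-Nd6, and mt-Nd4 was called without B6xCast replicate 1 (-0.92, adjusted p = 0.0272 by limma). mt-Nd4l could not be measured reliably: it had 0 unique hits in every library, and its count equivalents jumped between 7010, 6610 and 0.372 in C57BL/6J and 0.376, 0.265 and 10700 in Cast/EiJ. Its fitted log2 difference was -3.91 between the strains and 2.21, in the other direction, between the crosses, and neither was called.

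The single mitochondrial member of complex III, mt-Cytb, which encodes cytochrome b, had 136000, 89100 and 90300 count equivalents in C57BL/6J and 33200, 18500 and 20700 in Cast/EiJ (-2.14 ± 0.24 (SE), adjusted p = 0.000186). In the F1 crosses it had 181500, 200000 and 170100 in CastxB6 and 56600, 40600 and 34790 in B6xCast (-2.09 ± 0.17 (SE), adjusted p = 0.00649). Complex IV supplied 3 members, the catalytic core of cytochrome c oxidase, and all 3 fell in both comparisons. mt-Co1, which holds the haem and copper site where oxygen is reduced, had 185000, 149000 and 150000 and 70700, 50000 and 53600 in F0 (-1.48 ± 0.16 (SE), adjusted p = 0.000159) and 326000, 351000 and 316000 and 136100, 107200 and 100000 in F1 CastxB6 and B6xCast (-1.54 ± 0.12 (SE), adjusted p = 0.00444). mt-Co2, which takes electrons from cytochrome c, had 87100, 66700 and 62500 and 23700, 19800 and 22200 in F0 (-1.71 ± 0.14 (SE), adjusted p = 2.66e-05), and its log2 difference between the crosses was -1.86 ± 0.10 (SE), adjusted p = 0.000513. mt-Co3 had the smallest difference of the 9 called genes, with 68300, 61600 and 61700 and 36400, 36500 and 40900 in F0 (-0.75 ± 0.10 (SE), adjusted p = 0.000494), and a log2 difference of -1.01 ± 0.09 (SE), adjusted p = 0.0135 between the crosses.

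In complex V, mt-Atp6, subunit a of the proton channel, had 95300, 60000 and 48800 in C57BL/6J and 15600, 9050 and 11900 in Cast/EiJ (-2.46 ± 0.26 (SE), adjusted p = 0.000136), and 117400, 131400 and 107100 and 30010, 22000 and 21070 in F1 CastxB6 and B6xCast (-2.30 ± 0.14 (SE), adjusted p = 0.00159). mt-Atp8, whose reading frame overlaps that of mt-Atp6, had 8390, 4940 and 765 and 6460, 2100 and 4240 in F0 (0.29 ± 0.78 (SE), adjusted p = 0.807), and its unique hits ranged from 38 to 1008, so its level was uncertain. The 2 mitochondrial ribosomal RNAs, which are not members, differed from each other: 16S (mt-Rnr2) averaged 28533 ± 3153 (SD, n = 3) in F0 C57BL/6J and 14267 ± 2386 in F0 Cast/EiJ without overlap, whereas 12S (mt-Rnr1) averaged 8647 ± 1778 and 9170 ± 992 with overlap.

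**Figure D2:**
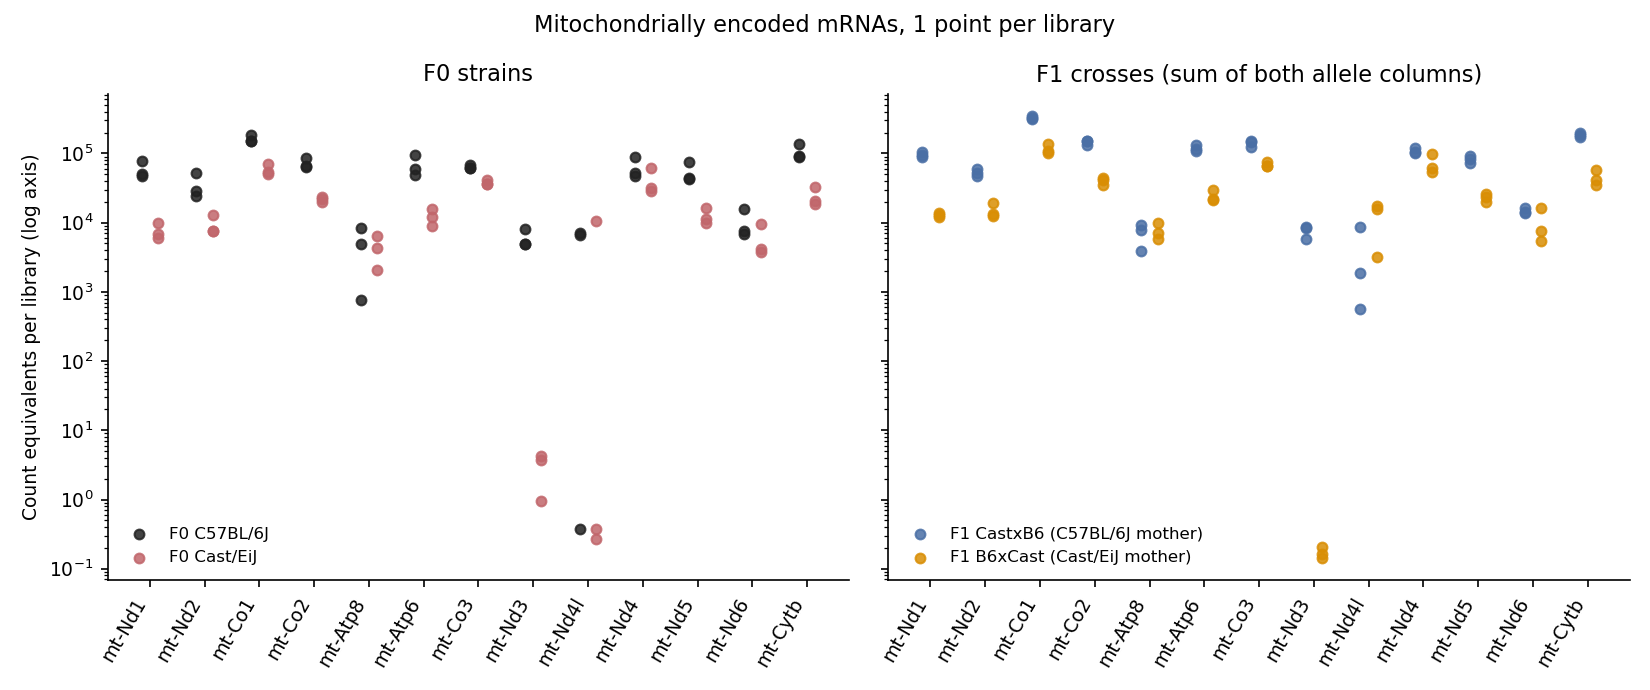
Count equivalents (log axis) of the 13 mitochondrially encoded mRNAs, ordered along the mitochondrial genome, with 1 point per library, for the F0 strains (left) and the F1 crosses (right). mt-Nd3 is at or below 4.3 count equivalents in every library with Cast/EiJ mitochondria, mt-Nd4l is scattered within groups, and for the 9 called genes the 2 groups of a panel do not overlap.

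Whether the mitochondrial difference between the strains was the same as that between the crosses was tested in 1 model of all 12 libraries. It called 25.6% of 15412 genes (12.2% higher and 13.4% lower), but of the mitochondrial members mt-Nd3 alone (2.01 ± 0.47 (SE), adjusted p = 0.00932, F0 difference minus F1 cross difference), whose value rests on levels near 0. For mt-Nd1 the difference between the 2 log2 differences was -0.03 ± 0.27 (SE), with an interval of -0.63 to 0.56. For mt-Co1 it was 0.06 ± 0.21 (-0.41 to 0.53) and for mt-Co3 0.26 ± 0.13 (-0.03 to 0.55). Each of these 3 intervals included no difference between the generations.

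The mitochondrial values rest on reads that parts of the nuclear genome could also claim. A search of the NCBI37 genome found 14 annotated nuclear genes with at least 50% of their length matched to mitochondrial DNA. The longest matches were a 4654-base stretch of chromosome 1 (99.9% identical), a 3260-base stretch of chromosome 2 (97.4%) and a 2875-base stretch of chromosome 4 (93.0%). Summed over the 14 genes, the copies had 20097, 7073 and 19316 count equivalents in F0 C57BL/6J and 125339, 79389 and 77682 in F0 Cast/EiJ. In F1 CastxB6 they had 35490, 32664 and 23600, and in F1 B6xCast 193324, 180044 and 143870. The copies lie on autosomes, which both crosses inherit alike. They were higher wherever the mitochondria came from Cast/EiJ and mitochondrial members were lower (6.55-fold in F0 and 5.68-fold in F1, exact permutation p = 0.1 each, the smallest possible). Whether reads of mitochondrial mRNAs were assigned to the copies was not tested.

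The sequences of 3 copies are set beside those of their mitochondrial genes. Gm13340, a copy of mt-Co1, had 14, 7 and 7 unique hits in F0 C57BL/6J and 27752, 23973 and 31157 in F0 Cast/EiJ, and differed from mt-Co1 at 37 of 1545 aligned bases. Gm13341, a copy of mt-Co2, differed at 16 of 684 aligned positions, with 12 more in gaps. Gm11407, a copy of part of mt-Nd5, differed at 78 of 1055. Each pair below is the 90-base stretch with the most differences, from the C57BL/6J reference genome, 5′ to 3′ on the strand of the mitochondrial gene, with differing bases in capitals. Gm10925, which covers mt-Atp6 and mt-Atp8, and Gm10222, a copy of mt-Nd4l, had no difference over 677 and 297 aligned bases. Gm10222 and mt-Nd4l had 0 unique hits, while Gm10925 had 1669 to 3421 in the F0 libraries and mt-Atp6 1145 to 23457.
mt-Co1 (NCBI37 chrM:5772-5861, plus strand): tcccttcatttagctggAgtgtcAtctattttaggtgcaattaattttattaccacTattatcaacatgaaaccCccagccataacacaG
Gm13340 (NCBI37 chr2:22444634-22444723, minus strand): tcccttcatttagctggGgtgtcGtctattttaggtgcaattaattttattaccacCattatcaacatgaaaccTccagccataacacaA
mt-Co2 (NCBI37 chrM:7462-7551, plus strand): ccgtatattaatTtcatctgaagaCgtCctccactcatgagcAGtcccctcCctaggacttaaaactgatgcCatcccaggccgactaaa
Gm13341 (NCBI37 chr2:22442956-22443045, minus strand): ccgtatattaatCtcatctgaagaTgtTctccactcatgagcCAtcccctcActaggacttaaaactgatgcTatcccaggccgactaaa
mt-Nd5 (NCBI37 chrM:12636-12725, plus strand): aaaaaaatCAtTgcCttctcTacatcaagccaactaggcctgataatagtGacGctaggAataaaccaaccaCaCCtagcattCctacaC
Gm11407 (NCBI37 chr4:79648382-79648471, plus strand): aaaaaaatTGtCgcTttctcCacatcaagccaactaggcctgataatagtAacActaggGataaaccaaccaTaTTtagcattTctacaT

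With each mitochondrial gene and its copies added together, the differences of the sum and of the median became smaller and kept their direction, while mt-Nd4l turned from -0.35 to 0.55 in F0 on group means (0.52 by limma, adjusted p = 0.248). The sum of all 13 with their copies was 2.17-fold higher in F0 C57BL/6J and 2.16-fold higher in F1 CastxB6. Reads that aligned neither to a mitochondrial gene nor to an annotated copy are not in these sums, and their part was not tested. The median log2 difference over the 13 genes became -0.80 between the strains, with 9 genes lower, and -1.01 between the crosses, with 5 genes lower (mt-Nd1, mt-Nd3, mt-Nd5, mt-Cytb and mt-Co3). For mt-Co1, copies averaged 45267 count equivalents in F0 Cast/EiJ and 10.3 in F0 C57BL/6J, and the log2 difference with copies was -0.65 (adjusted p = 0.011) between the strains and -0.68 (adjusted p = 0.205) between the crosses. For mt-Co2 it was -0.80 (adjusted p = 0.00858) and -0.87 (adjusted p = 0.0905), by limma as above. For mt-Nd2 the same fit gave -1.74 (adjusted p = 0.00273) and -1.72 (adjusted p = 0.0905). For mt-Atp6 it gave -1.34 (adjusted p = 0.00417) and -1.33 (adjusted p = 0.0905). mt-Nd1, mt-Co3, mt-Nd3 and mt-Cytb were nearly unchanged by the addition, since their copies had at most 22.7 count equivalents on average in any group or none was found. Gm10925 was added to mt-Atp6 alone.

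**Figure D3:**
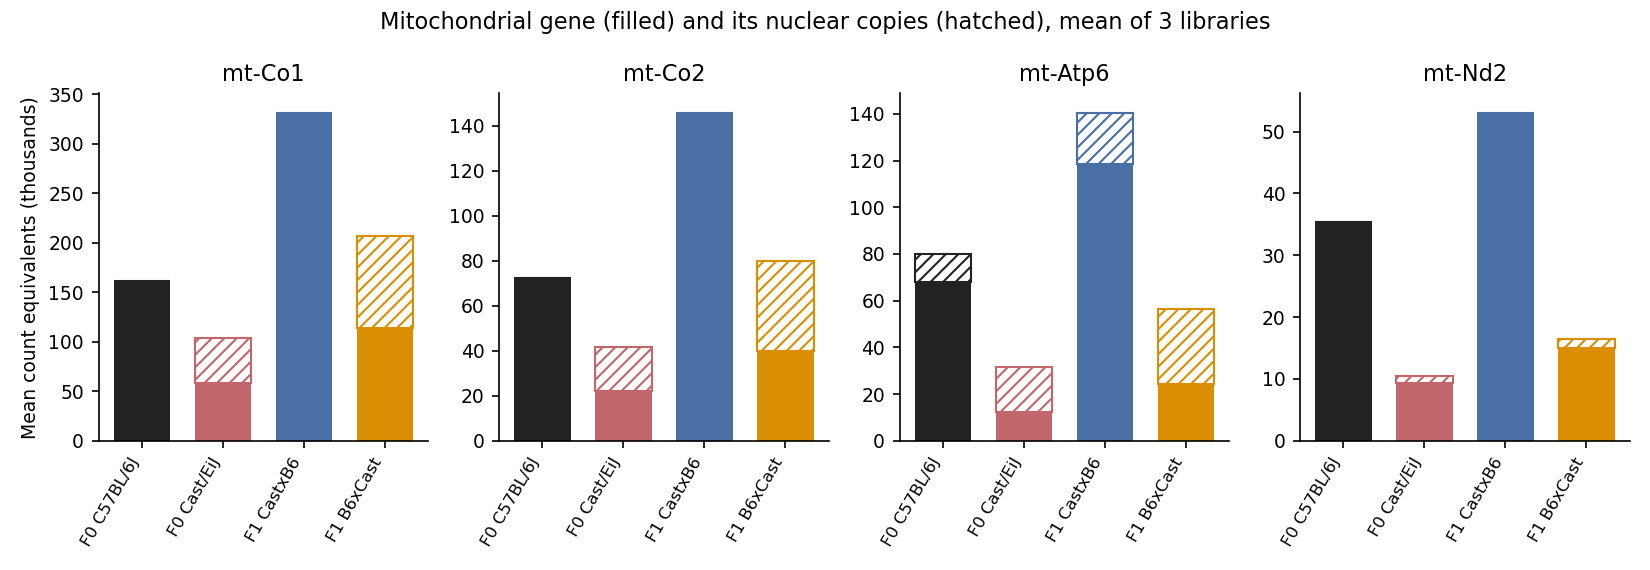
Mean count equivalents of 3 libraries for 4 mitochondrial genes (filled) and the annotated nuclear copies of each (hatched, stacked), by group. Copies of mt-Co1 and mt-Co2 hold almost nothing in F0 C57BL/6J and F1 CastxB6 and close to as much as the gene itself in F0 Cast/EiJ and F1 B6xCast; the stacks remain lower in the latter groups.

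The F1 values of the mitochondrial members have a further limit. Without allele-specific unique hits, the estimate divided each gene's reads between the 2 allele columns without direct evidence. The C57BL/6J column took from 0.000170% to 100% of mt-Nd6 and from 35.2% to 63.9% of mt-Co1, depending on the library. The sum of both columns was used for this reason, and no share of the maternal allele could be computed for the mitochondrial genes.

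Among the nuclear members, 75 of 82 passed the filter in F0. Of these, 6 rose in Cast/EiJ, 6 fell and 63 did not pass the test, so 12 of 75 were called, against 33.8% of all genes tested. The median log2 difference was 0.05 (0.03 over all genes), and the differences ran from -1.55 to 0.84. The count rests on single libraries: it was 7 without C57BL/6J replicate 1 or 2, and 6 without Cast/EiJ replicate 2 or 3. When levels were scaled to the autosomal total instead, 3 rose and 6 fell, with a median of -0.01 (-0.02 over all genes). The 95% interval of the difference lay within a 2-fold change in either direction for 71 of the 75, and it reached the mitochondrial median of -1.88 for 2, Ndufs5 and Atp5e. One of the 12 called genes, Atp5sl, is matched by symbol but is not an ATP synthase subunit; it is related to a factor that takes part in building the membrane arm of complex I.

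Complex I had 34 nuclear members tested, of which 1 rose and 3 fell. Ndufs5, an accessory subunit on the intermembrane space side, had 431, 533 and 576 count equivalents in C57BL/6J and 120.0, 223 and 196 in Cast/EiJ (-1.55 ± 0.22 (SE), adjusted p = 0.000808), the largest difference of any nuclear member. Ndufa12, an accessory subunit that joins late in assembly, had 745, 612 and 737 and 382, 385 and 320.0 (-0.94 ± 0.11 (SE), adjusted p = 0.000304). For both, each Cast/EiJ library was below each C57BL/6J library. Ndufb2, an accessory subunit of the membrane arm, had 710.0, 637 and 705 and 605, 539 and 542 (-0.28 ± 0.09 (SE), adjusted p = 0.0315), but on the authors' log expression scale its difference was -0.06 with adjusted p = 0.673. Ndufs3, a core subunit of the arm that holds the iron-sulphur clusters, had 677, 604 and 661 and 784, 778 and 798 (0.28 ± 0.08 (SE), adjusted p = 0.0193).

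Complexes II and III were nearly level. Of the 4 subunits of complex II, Sdhc, a haem-binding membrane anchor, was 898, 870.0 and 942 in C57BL/6J and 776, 770.0 and 782 in Cast/EiJ (-0.22 ± 0.07 (SE), adjusted p = 0.0375), a small difference without overlap. The other 3, Sdha, Sdhb and Sdhd, did not pass the test. No member of complex III did either: by limma 0 of 8 had even an unadjusted p under 0.05, and their log2 differences ran from -0.13 to 0.19, and edgeR on unique hits called 0 of them.

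Complex IV had 12 nuclear members tested, of which 3 rose and none fell. Cox6a1, the widely expressed form of subunit VIa, had 1300, 1340 and 1420 count equivalents in C57BL/6J and 2330, 2340 and 2610 in Cast/EiJ (0.84 ± 0.07 (SE), adjusted p = 4.45e-05), the largest rise of any nuclear member. Cox8a, the widely expressed form of subunit VIII, had 1620, 1560 and 1650 and 2090, 2190 and 2390 (0.46 ± 0.07 (SE), adjusted p = 0.00135). Neither gene's groups overlapped. Cox4i2, a form of subunit IV best known from lung and from low oxygen, had 172, 165 and 185 and 199, 235 and 246 (0.38 ± 0.12 (SE), adjusted p = 0.0411). These 3 nuclear subunits of complex IV were higher in the strain in which its 3 mitochondrial subunits were lower.

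Complex V had 17 nuclear members tested, of which 2 rose and 2 fell. Atp5e, the epsilon subunit of the central stalk, had 227, 311 and 380.0 in C57BL/6J and 83.2, 115 and 123 in Cast/EiJ (-1.49 ± 0.21 (SE), adjusted p = 0.000841). Atp5sl, named above, had 513, 475 and 453 and 287, 334 and 280.0 (-0.68 ± 0.10 (SE), adjusted p = 0.00115). Both were lower in each Cast/EiJ library. Atp5j2, a membrane subunit called f, had 602, 636 and 714 and 728, 868 and 939 (0.37 ± 0.11 (SE), adjusted p = 0.0296), and Atp5f1, subunit b of the stator stalk, had 1370, 1420 and 1530 and 1590, 1690 and 1800 (0.23 ± 0.08 (SE), adjusted p = 0.042). All 12 nuclear calls in F0 were also made, in the same direction, by edgeR on unique hits, a test that called 37.8% of 13885 genes.

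**Figure D4:**
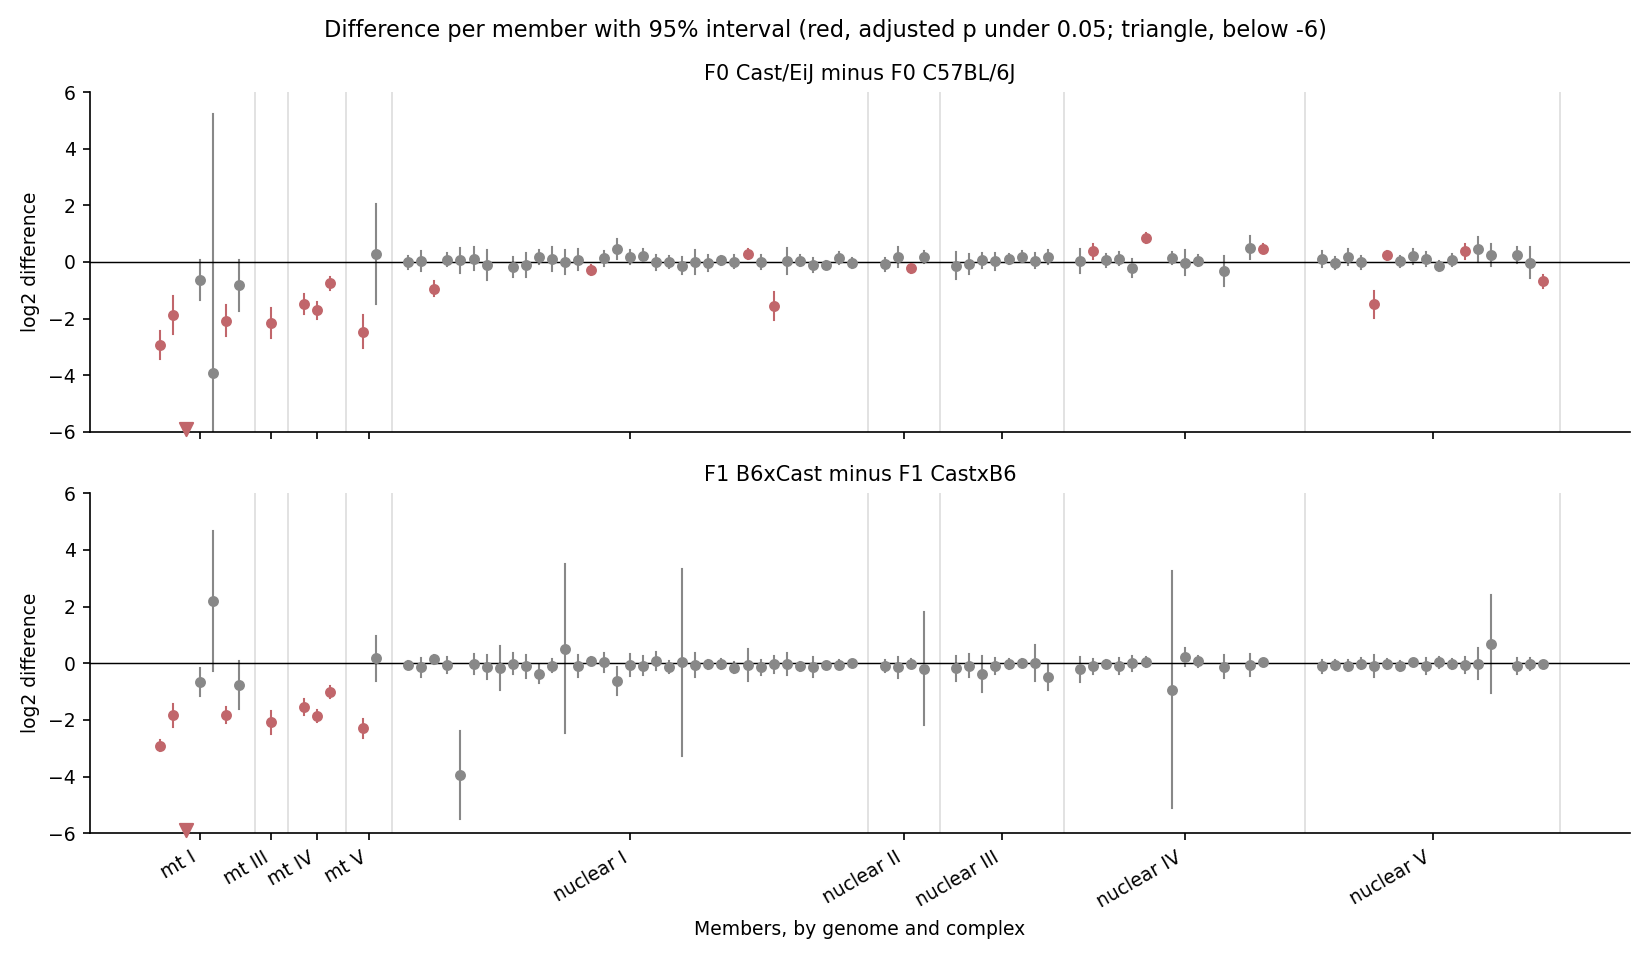
Log2 difference of each tested member with its 95% interval, between F0 strains (top) and between F1 crosses (bottom), ordered by genome and complex; red marks an adjusted p under 0.05 and triangles a value below -6 (mt-Nd3). The same 9 mitochondrial genes are red in both panels, 12 nuclear members are red at the top and none at the bottom, and the wide intervals at the bottom belong to members with few or no allele-specific unique hits.

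Between the F1 crosses, 76 nuclear members were tested and limma called none of them (0 of 76 against 0.113% of all genes), with a median log2 difference of -0.06 (B6xCast minus CastxB6). An unadjusted p under 0.05 was reached by 4, namely Ndufa2, Ndufa7, Ndufb4 and Uqcrq. edgeR called 0 on rounded count equivalents and 0 of 68 on unique hits, whereas DESeq2 called 1, Ndufa2 (adjusted p = 0.0174). The interval lay within a 2-fold change for 68 of the 76, and it reached the mitochondrial median of -1.82 for 5. Of the 76 differences 60 were below 0. Replicate 1 of B6xCast had the lowest nuclear sum of the 6 libraries, 145171 against 172664 to 182297 for the others, and without it the log2 difference of the sums was 0.02 instead of -0.08.

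Ndufa2, an accessory subunit of complex I, had 917, 725 and 911 count equivalents in CastxB6 and 168, 44.8 and 20.5 in B6xCast (-3.95 ± 0.66 (SE), adjusted p = 0.352), and without B6xCast replicate 1 it was called (-4.76, adjusted p = 0.00335). In F0 it had 358, 496 and 536 and 372, 490.0 and 592, so the strains overlapped. Ndufa2 had no allele-specific unique hit in any F1 library, as was true of 9 nuclear members, and 14 had fewer than 10 per library on average. Among the 8 such members with at least 100 count equivalents in F0, the mean F1 level was 0.208 to 0.887 of the sum of both F0 strains, with a median of 0.562. Among the 65 members with more allele-specific hits the same ratio was 0.749 to 2.00 with a median of 1.05. The wide intervals of Cox6b1, Ndufa9, Ndufb9, Sdhd and Atp5l in the F1 comparison belong to the former group. For these members the F1 estimates were therefore less certain than the F0 estimates.

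Within the hybrids, the 2 alleles of a gene are read in the same cells, so that the comparison does not depend on the amount of tissue or on the maternal lineage. Of the 68 nuclear members with enough allele-specific unique hits (a mean of at least 10 per library), 12 were higher from the Cast/EiJ allele, 9 were higher from the C57BL/6J allele and 47 did not pass the test. That is 30.9% called, against 47.0% of all 13414 genes tested (23.5% in each direction), with a median of 0.03 (0.00 over all genes). edgeR on the unique hits alone, which called 43.0% of all genes, made 15 of these 21 calls in the same direction. Without B6xCast replicate 2, and likewise without CastxB6 replicate 1, 13 members were called.

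Complex IV had 7 of its 11 tested members called between alleles, 6 of them higher from the Cast/EiJ allele. Cox6a1 had 239, 458 and 317 unique hits from the C57BL/6J allele and 348, 586 and 450 from the Cast/EiJ allele in the B6xCast libraries, and 414, 323 and 338 against 572, 484 and 489 in the CastxB6 libraries (0.52 ± 0.05 (SE), adjusted p = 4.94e-07, Cast/EiJ minus C57BL/6J). The Cast/EiJ allele was ahead in each of the 6 libraries. Cox6b2, the form of subunit VIb best known from testis, was low, with 10 to 31 hits per allele and library (0.59 ± 0.13 (SE), adjusted p = 0.00102). Cox7c, a small membrane subunit, had 225, 449 and 346 against 406, 816 and 537 hits in B6xCast and 452, 404 and 388 against 780, 617 and 579 in CastxB6 (0.48 ± 0.12 (SE), adjusted p = 0.004). Cox7a2 (0.44 ± 0.15 (SE), adjusted p = 0.0216), Cox4i2 (0.35 ± 0.11 (SE), adjusted p = 0.0143) and Cox8a (0.17 ± 0.04 (SE), adjusted p = 0.00363) were also higher from the Cast/EiJ allele, and Cox6c was lower (-0.16 ± 0.06 (SE), adjusted p = 0.0419).

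In complex I, 4 of 31 were higher and 6 lower from the Cast/EiJ allele. Ndufa12 had 347, 475 and 328 hits from the C57BL/6J allele and 194, 277 and 193 from the Cast/EiJ allele in B6xCast, and 471, 369 and 376 against 311, 214 and 212 in CastxB6 (-0.62 ± 0.06 (SE), adjusted p = 4.87e-07). Ndufs5 had 291, 472 and 370 against 172, 358 and 244 in B6xCast and 465, 388 and 433 against 301, 279 and 249 in CastxB6 (-0.60 ± 0.13 (SE), adjusted p = 0.00109). Both were lower from the Cast/EiJ allele in each of the 6 libraries, as they were in the F0 strain. Ndufb5 (-0.71 ± 0.17 (SE), adjusted p = 0.00222), Ndufc2 (-0.30 ± 0.07 (SE), adjusted p = 0.00273), Ndufs7 (-0.18 ± 0.06 (SE), adjusted p = 0.0219) and Ndufv1 (-0.14 ± 0.04 (SE), adjusted p = 0.00527) were lower as well. Ndufa6, Ndufb10 and Ndufv3 were higher at 0.39, 0.32 and 0.10, but edgeR on unique hits did not call them. Ndufa7, another accessory subunit, was called higher on count equivalents (1.21 ± 0.24 (SE), adjusted p = 0.000535) and lower on unique hits (edgeR, -1.02, adjusted p = 0.000343). It had only 39.2 allele-specific hits per library, more from the C57BL/6J allele in all 6 libraries, so its direction depends on the measure.

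The other complexes contributed few allelic calls. In complex V, Atp5k, a small membrane subunit called e, was higher from the Cast/EiJ allele (0.45 ± 0.16 (SE), adjusted p = 0.0272), and Atp5sl (-0.60 ± 0.06 (SE), adjusted p = 3.2e-07) and Atp5j, the coupling factor of the stator (-0.24 ± 0.06 (SE), adjusted p = 0.00293), were lower, the last of these not on unique hits (-0.04, adjusted p = 0.714 by edgeR). In complex II, Sdha, the flavoprotein, was higher by 0.19. None of the 7 members of complex III tested passed by limma, and 0 had an unadjusted p under 0.05. edgeR on unique hits called 0 of them.

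Of the 12 nuclear members called between the F0 strains, all had an allelic test, 6 were called in the same direction between alleles (Cox6a1, Cox8a, Cox4i2, Ndufs5, Ndufa12 and Atp5sl), and none was called in the other direction. Over all 13414 genes tested between alleles 47.0% were called, 23.5% in each direction. The like share among all genes called between the strains is not given here, so the count of 6 has no direct background. Whether the F0 and allelic differences of a gene were unequal was tested directly. The F0 difference minus the allelic difference passed for 14.0% of 13414 genes (5.64% higher and 8.31% lower) and for 5 of 68 nuclear members, a count that was 9 without B6xCast replicate 1. Atp5e stood farthest apart: the F0 strains differed by -1.49, whereas the Cast/EiJ allele had 299, 518 and 452 unique hits against 227, 450 and 358 in B6xCast and was ahead in each of the 6 F1 libraries (-1.79 ± 0.24 (SE), adjusted p = 0.000101). Its F1 level was also 2.00 times the sum of the F0 strains, the highest ratio of any member with allele-specific hits. Ndufs5 (-0.94 ± 0.24 (SE), adjusted p = 0.0131) fell further between strains than between alleles, and Cox8a (0.30 ± 0.08 (SE), adjusted p = 0.0166) and Cox6a1 (0.32 ± 0.10 (SE), adjusted p = 0.0381) rose further. Ndufb2 (-0.34 ± 0.08 (SE), adjusted p = 0.00937) passed as well, but fell between the strains only. Its Cast/EiJ allele had 633, 739 and 544 unique hits against 596, 694 and 497 in B6xCast, and 737, 606 and 596 against 704, 596 and 621 in CastxB6. On unique hits with edgeR, Ndufs5 (adjusted p = 0.078) and Cox6a1 (adjusted p = 0.175) did not pass, while that test called 11 members in all.

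**Figure D5:**
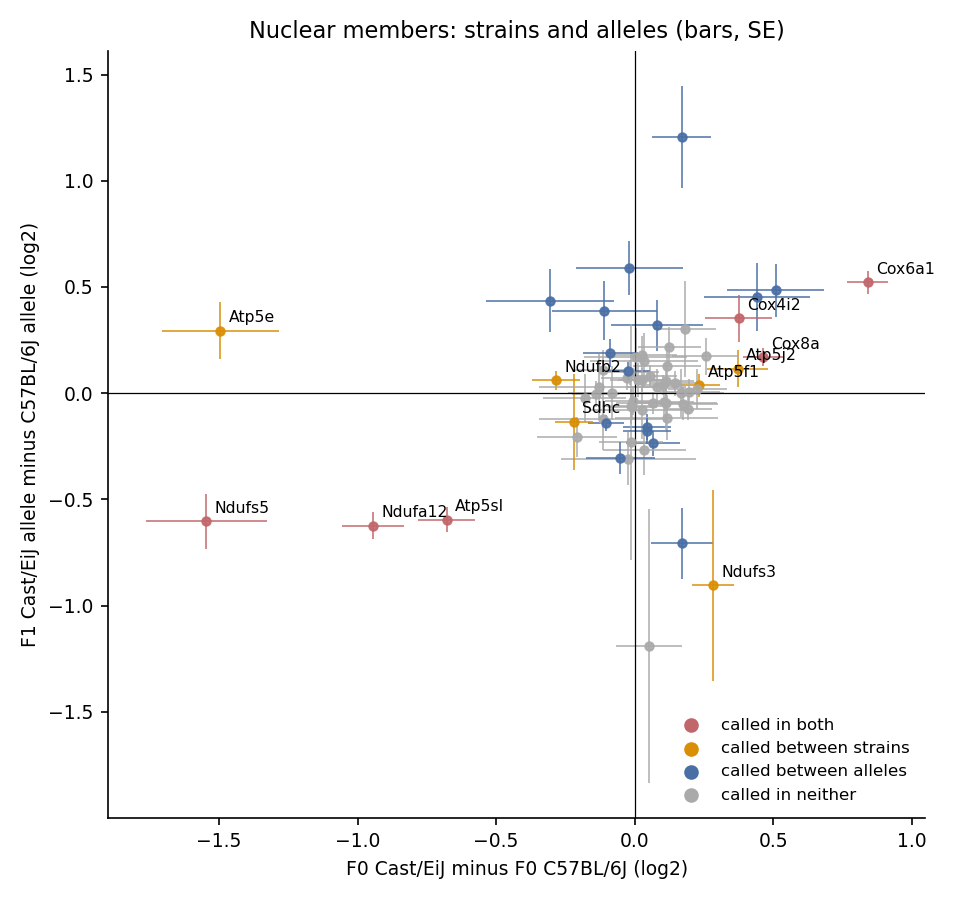
Log2 difference between F0 strains (horizontal) and between alleles in F1 hybrids (vertical) for the 67 nuclear members tested in both, with SE; members called between strains are named. The 6 called in both lie at the lower left and the upper right, and Atp5e lies far to the left with an allelic difference of 0.29 that did not pass the test.

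A parent-of-origin difference, the maternal minus the paternal allele, was called for 0.492% of 13414 genes (0.179% higher and 0.313% lower) and for 1 of 68 nuclear members, Ndufa7 (-1.37 ± 0.24 (SE), adjusted p = 0.00838). It was not called by edgeR on unique hits (-0.36, adjusted p = 1), nor without B6xCast replicate 2 or CastxB6 replicate 2, where no member was called. The median over the 68 was -0.00. An unadjusted p under 0.05 was reached by 3.

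Levels per transcript length were taken as the exponential of the authors' log expression and so are given in FPKM. On F0 group means the mitochondrial mRNAs lay above every nuclear member, apart from mt-Nd3 in Cast/EiJ. In F0 C57BL/6J the mitochondrial mRNAs ranged from 1309 (mt-Nd6) to 6651 (mt-Co2), and in F0 Cast/EiJ from 379 (mt-Nd5) to 2960 (mt-Co3) apart from mt-Nd3. The most abundant nuclear member, Atp5b, the catalytic beta subunit, had 444 and 345 FPKM in the same groups. It was followed in C57BL/6J by Ndufa4 (237), Cox8a (199), Cox4i1 (171) and Atp5a1 (167), the alpha subunit. Single libraries overlapped: in Cast/EiJ replicates 2 and 3, mt-Nd5 (298.5 and 340.7) lay below Atp5b (347.9 and 361.9). mt-Nd4l was at 0.122 in C57BL/6J replicate 3. On F1 B6xCast means, Atp5b (919) lay above mt-Nd5 (713), mt-Nd1 (807), mt-Nd2 (865) and mt-Nd3 (0.0420). The sum of the mitochondrial members in FPKM was 2.66-fold higher in F0 C57BL/6J and 2.50-fold higher in F1 CastxB6, against 2.95-fold and 2.93-fold in count equivalents.

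Where a subunit has alternative isoforms, the retina used the widely expressed one in both strains. Cox4i1 had 171 FPKM in F0 C57BL/6J and 176 in F0 Cast/EiJ, against 14.9 and 19.3 for Cox4i2. Cox6a1 had 157 and 282, while Cox6a2, the heart and muscle form, had 0.359 and 0.0802. For subunit VIb, Cox6b1 had 124 and 137 and Cox6b2 4.69 and 4.64. For subunit VIIa, Cox7a2 had 50.3 and 41.1 and the heart and muscle form Cox7a1 2.64 and 0.872. Cox8b was at 4.64 ± 2.54 count equivalents (SD, n = 3) in C57BL/6J and at most 5.18e-05 in Cast/EiJ, Cox8c was at most 7.15e-05 in all 12 libraries and Cox7b2 at most 0.489, whereas Ndufa4l2 had 7.07 and 6.10 count equivalents in the 2 strains against 1667 and 1537 for Ndufa4. The 3 genes for the identical mature c subunit of the ATP synthase ring were of like size, with 78.5, 99.3 and 114 FPKM for Atp5g1, Atp5g2 and Atp5g3 in C57BL/6J and 100.8, 115 and 123 in Cast/EiJ. The 7 nuclear members that did not pass the F0 filter were Cox6a2, Cox7a1, Cox7b2, Cox8b, Cox8c, Ndufa4l2 and Atp5l-ps1.

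Besides Atp5sl, 2 further genes that passed the F0 filter match the symbol rule without coding for a subunit. Atp5l-ps1, a pseudogene by symbol that is annotated as protein-coding, also matches it and had 0 unique hits in every library. Cox4nb, a neighbour of Cox4i1 that belongs to a complex of the endoplasmic reticulum, averaged 1177 count equivalents in C57BL/6J and 1230 in Cast/EiJ (0.06 ± 0.10 (SE), adjusted p = 0.684). Atp5s, a coupling factor of the ATP synthase, averaged 76.5 and 75.7 (-0.02 ± 0.24 (SE), adjusted p = 0.954).

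Other genes of mitochondrial energy metabolism, from lists chosen with earlier results known, also gave no call between the crosses. In the F1 cross comparison limma called 0 of 24 assembly factors and 0 of 25 genes of mitochondrial gene expression. It also called 0 of 77 genes with a mitochondrial ribosomal protein symbol, some of them, such as Mrpl23-ps1, pseudogenes by symbol. Likewise 0 of 13 citrate cycle genes, 0 of 11 genes of the outer membrane and import and 0 of 8 biogenesis regulators were called. At an unadjusted p under 0.05 these counts were 0, 0, 5, 0, 1 and 0. Their medians lay between -0.02 and 0.01.

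Between the F0 strains the same lists had more calls, against 33.8% of all genes. Among 25 genes of mitochondrial gene expression 5 rose and 5 fell. Gfm2 (-1.33) had the largest fall and Mterfd1 (1.21) the largest rise. Lrpprc, which stabilizes mitochondrial mRNAs, fell by 0.84 on the log2 scale (1533 ± 159 to 861 ± 128 count equivalents, mean ± SD, n = 3), Tfam, which packages and transcribes mitochondrial DNA, fell by 0.59, and Polrmt, the mitochondrial RNA polymerase, rose by 0.44. Of these, Gfm2 (-1.04) and Lrpprc (-0.92) were also lower from the Cast/EiJ allele, and Mterfd1 (1.09) and Polrmt (0.22) were higher. Tfam was not called between alleles. Of 24 assembly factors 5 fell and none rose, with Cox18, an insertase for mt-Co2, at -1.19 and Sdhaf1, an assembly factor of complex II, at -1.05. Of 78 genes with a mitochondrial ribosomal protein symbol 8 rose and 13 fell. Some are pseudogenes by symbol, such as Mrpl23-ps1 and Mrpl48-ps, and the latter (5.24) is among those that rose. Of 13 citrate cycle genes none was called (2 at an unadjusted p under 0.05). In the outer membrane and import list 2 of 11 rose, Hspd1 (0.34) and Vdac2 (0.26), and 2 fell, Tomm20 (-1.96) and Timm44 (-0.77). Of 8 biogenesis regulators, Ppargc1b fell by 1.83 and Yy1 rose by 0.31. Cox7a2l, a complex III and IV assembly protein outside the symbol rule, averaged 1150 ± 125 in C57BL/6J and 228 ± 6.11 in Cast/EiJ, a log2 difference of -2.32, and was lower from the Cast/EiJ allele by 1.67.

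The promoters of the nuclear members were searched for letters that resemble sites of 2 factor families known to act on these genes, nuclear respiratory factor 1 and the ETS family, and for the CCAAT box. RefSeq promoters on GRCm38.p6 (250 bases before to 50 after the start) matched 62 of the 75 members tested in F0. GCGC followed by any 2 bases and GCGC, on either strand, was in 18 of 62 (29.0%), against 1891 of the 27025 genes of the table. CCGGAAG was in 16 of 62 (25.8%), against 9.93%, and CCAAT in 27 of 62 (43.5%), against 41.1%. Among the 10 matched members called in F0 these letters were in 2, 4 and 6. The 250 bases before the start are shown for Cox6a1 and Ndufs5, the nuclear members with the largest rise and the largest fall, with matches to any of the 3 motifs in capitals. A match is a description of the letters, not of binding, and overlapping matches are merged.
Cox6a1 (GRCm38.p6 chr5:115348959-115349208, minus strand): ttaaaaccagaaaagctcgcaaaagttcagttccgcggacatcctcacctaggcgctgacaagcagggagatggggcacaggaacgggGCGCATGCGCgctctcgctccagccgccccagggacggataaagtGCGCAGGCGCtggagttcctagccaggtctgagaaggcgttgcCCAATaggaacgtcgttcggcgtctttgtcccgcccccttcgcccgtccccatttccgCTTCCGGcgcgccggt
Ndufs5 (GRCm38.p6 chr4:123718187-123718436, minus strand): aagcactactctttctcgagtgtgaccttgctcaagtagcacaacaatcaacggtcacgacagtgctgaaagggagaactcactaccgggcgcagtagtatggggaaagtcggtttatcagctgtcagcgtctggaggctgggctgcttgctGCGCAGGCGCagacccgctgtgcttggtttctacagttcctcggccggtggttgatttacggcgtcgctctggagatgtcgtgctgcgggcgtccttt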

How the data were processed

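Poly(A)-selected mRNA of 12 retina pools was sequenced in read pairs of 101 bases. Per the labels and the study's methods, the authors trimmed reads with Trim Galore 0.2.6, aligned them with Bowtie 0.12.9 to strain and hybrid transcriptomes built on NCBI37, and estimated expression with MMSEQ. They deposited, per gene and per allele in F1, expression as a natural log, unique hits as a count, and count equivalents, a normalized signal and not raw counts. Columns that hold the authors' own fold changes and tests were not used, nor were 36 per-sample columns of that comparison table.

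Count equivalents (both alleles added in F1) plus a pseudocount of 1 were tested on the log2 scale with limma 3.58.1 in R 4.3.3, for genes with at least 10 in at least 3 of the 6 libraries, with an adjusted p threshold of 0.05. Allelic tests took genes averaging 10 or more such hits that told the alleles apart, and treated the library as a random block (consensus correlation 0.1354). edgeR 4.0.16 on unique hits and DESeq2 1.42.0 on rounded values were alternatives. Since the deposited count equivalents are estimates, no count test was the main one. Sums were compared by exact permutation in Python 3.11.15 with scipy 1.17.1. Nuclear copies were found with blastn 2.17.0. The tests were checked on simulated data. The replicates are pools of retinas, and p-values measure the spread between these pools. The genes named are all mitochondrial members, up to 6 called nuclear members with the largest difference in each direction per contrast (mean of at least 100 count equivalents), tissue isoform pairs, members behind a count of 5 or fewer and matched genes that are not subunits. Further called members were named after their values were seen. The members and lists were chosen with earlier results of these data known. Precision is limited by 8158534 to 12363291 unique hits per library. The interval and floors given cover counting error only.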

Additional observations from a re-analysis of the deposited data

Results flagged for a closer look

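The difference between the F0 strains was not the same as the difference between the F1 crosses for 11 members, by the test of the difference itself (limma over all 12 libraries, F0 difference minus F1 cross difference on the log2 scale). This test called 25.6% of all genes. mt-Nd3 was the single mitochondrial member among them, at 2.01, and its levels in libraries with Cast/EiJ mitochondria were close to 0 in both generations. Among nuclear members, Ndufa2 stood at 4.01, Ndufb4 at 1.09 and Ndufa7 at 0.56, and these 3 also had an unadjusted p under 0.05 between the crosses. Ndufa2 and Ndufb4 had fewer than 10 allele-specific unique hits per F1 library, and the part of this in their values was not tested. Cox6a1 stood at 0.79 and Cox8a at 0.44, both higher in F0 Cast/EiJ. Ndufs5 stood at -1.50, Atp5e at -1.38, Ndufa12 at -1.08, Atp5sl at -0.64 and Ndufb2 at -0.37, all lower in F0 Cast/EiJ. These 7 were called between the F0 strains and not between the crosses, which carry the same autosomal alleles.

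The difference between the alleles of Ndufa7 was not the same in both crosses, at -1.37 for the maternal minus the paternal allele. It rested on 39.2 allele-specific unique hits per library and did not pass on those hits with edgeR.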

How the results depend on the processing

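The nuclear count between the F0 strains was 6 to 15 when each library was left out in turn, against 12, and the mitochondrial count 8 to 11, against 9. Between the crosses these counts ranged over 0 to 1, against 0, and 5 to 10, against 9. The single nuclear call was Ndufa2, also made by DESeq2 (1) and by the model of all 12 libraries (1). The difference of differences gave 9 to 13 nuclear calls, against 10, and 1 mitochondrial call each time. The allelic count ranged from 13 to 27, against 21, the parental count from 0 to 1, against 1, and the F0 minus allelic count from 4 to 9, against 5. The parental count was 0 with edgeR and 0 with at least 50 hits, and the F0 minus allelic count was 11 with edgeR. The summed mitochondrial difference ranged from -1.73 to -1.37 in F0 and from -1.68 to -1.47 in F1, and the nuclear one from -0.03 to 0.13 and from -0.13 to 0.02. With nuclear copies added, an alternative for the sums chosen after seeing the data, the mitochondrial differences were -1.12 and -1.11, and 5 mitochondrial genes were called between the crosses. Another alternative chosen after seeing the data, leaving out members with fewer than 10 unique hits, was also run. The causes of these changes were not tested.

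Deviations of samples with the same replicate number correlated at 0.326, 0.030 and 0.137 in F0 and at -0.103, -0.118 and -0.056 in F1. For unlike numbers the correlations ran from -0.269 to 0.173 in F0 and from -0.002 to 0.122 in F1. The labels name no batch, and whether samples of the same number shared one was not tested. With the replicate block, 20 nuclear members and 11 mitochondrial genes were called between the strains, 4 mitochondrial genes between the crosses and 0 members for parent of origin.

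Directions turned for members that had not passed the test, and for Ndufa7. mt-Atp8 turned in F0 with DESeq2 (-0.16), with edgeR on rounded values (-0.14) and with a library left out (-0.74 to 0.99), and in F1 with a library left out (-0.20 to 0.42, with -0.03 without B6xCast replicate 1). Without Cast/EiJ replicate 1 its F0 value was -0.09. mt-Nd4l became 0.52 in F0 with copies added, Uqcrq 0.00 in F1 on log expression, and the allelic difference of Ndufa7 -1.02 with edgeR. Of 1467 further values under alternatives (single members, and counts in 1 direction), 1303 kept their direction and side of the threshold, 140 no longer passed, 8 newly passed and 9 turned. The other 7, all counts of nuclear members called higher in F0, moved by over 1.5 times, to between 2 and 12. Of the 9 nuclear members without an allele-specific hit in F1, 7 are marked by the authors as having no known exonic variant.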
